A study of Mus musculus with 24 samples.

Results

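The genes described here are 9 genes of vitamin A (retinoid) metabolism and retinoic acid signalling in differentiating mouse 3T3-L1 cells: Bco1, Stra6, Rdh10, Dhrs3, Aldh1a1, Aldh1a7, Crabp1, Crabp2 and Rarb. They were picked by name with the counts of all 12 RNA-seq libraries known, so their levels and fold changes are given as a description and carry no test. All 9 were found among the 23577 features, 1 transcript per gene, of the count tables, and 6 of the 9 had enough counts to enter the fit over 13347 genes. Crabp1, Stra6 and Rarb stayed below that filter.

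Vitamin A enters cells as retinol, through the receptor STRA6, or as the provitamin beta-carotene, which the oxygenase BCO1 cleaves to retinal. RDH10 oxidises retinol to retinal and DHRS3 reduces retinal back to retinol, while retinal dehydrogenases such as ALDH1A1 turn retinal irreversibly into retinoic acid. Retinoic acid is carried in the cytosol by the CRABP proteins and acts through nuclear receptors, of which RARB is itself encoded by a classic retinoic acid target gene. In fat cell differentiation the pathway is known for opposite effects of its parts, since retinoic acid restrains early adipogenesis while the adipogenic receptor PPARG is known to act on several retinoid genes, Bco1 among them.

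The 3T3-L1 line is a mouse preadipocyte line that forms fat cells after hormonal induction. The RNA-seq libraries made 4 groups of 3: LSD1 overexpression at day 7, control at day 7, LSD1 overexpression at day 0 and control at day 0, all at passages 13 to 18 in medium with 10% FBS. Day 0 was confluent, undifferentiated cells, and the day 7 cells of both genotype labels had received 10 µg/ml insulin, 1 µM dexamethasone, 10 µM rosiglitazone (a PPARG agonist) and 500 µM isobutylmethylxanthine, with a change at day 3 to medium with insulin alone. LSD1 is the histone demethylase encoded by Kdm1a, and 6 ChIP-seq peak lists, from 1 sample each, cover LSD1 in both kinds of cells at both days and the transcription factor Nrf1 at both days. The sample titles call the RNA-seq libraries of a group biological replicates. The sources used here do not give the vector or promoter behind the LSD1 label or whether those cells were 1 clone. They also do not say whether the biological replicates were separate cultures, so p-values measure only the spread between these libraries.

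Kdm1a averaged 54.7 ± 0.610 CPM (counts scaled to library size by TMM) in libraries labelled LSD1 overexpression and 69.4 ± 4.49 CPM in control libraries at day 7 (SD, n = 3 each). At day 0 it averaged 97.5 ± 7.48 CPM in the labelled libraries and 83.1 ± 3.77 CPM in control (SD, n = 3 each). It was lower at day 7 under the label (log2 fold change -0.34 ± 0.097 SE, edgeR adjusted p = 0.00749) and did not pass at day 0 (0.23 ± 0.096, edgeR adjusted p = 0.0967). Kdm1a RNA thus did not follow the label at day 7, and the libraries are called LSD1-labelled below. Replicate 1 of the LSD1-labelled day 0 group stood apart, with correlations of log2 CPM of 0.955 and 0.957 to its replicates, against 0.993 between the other two. Without that replicate Kdm1a was called higher at day 0 (0.29, edgeR adjusted p = 0.013).

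Markers of the labelled cell type were present. All 5 of 5 fat cell markers rose by day 7 under both labels, and their summed level was 17850 to 21760 CPM in LSD1-labelled and 4916 to 6713 CPM in control libraries at day 7. With the label at day 7, 4 of them were higher, and Adipoq did not pass (0.54 ± 0.278, edgeR adjusted p = 0.107). The 5 preadipocyte and fibroblast markers summed to 1158 to 1194 CPM in LSD1-labelled and 7336 to 7627 CPM in control libraries at day 7, and at day 0 to 12330 to 16650 CPM and 29070 to 31480 CPM. All 5 were lower under the label at day 7. Pdgfra went against the other 4 in control cells by day 7, where it rose (0.72 ± 0.092, edgeR adjusted p = 3.9e-05). It did so again under the label at day 0, where it was higher (0.51 ± 0.092, edgeR adjusted p = 0.00168). Both sums move with every day 7 difference below, and the part of these markers in it was not tested. In such bulk RNA, fewer cells of a kind and less RNA per cell cannot be told apart. Markers of other cell types were scarcer and also moved with the label at day 7, and their part in the results was not tested. The 4 macrophage markers in the table summed to 6.61 to 7.04 CPM in LSD1-labelled and 13.5 to 15.8 CPM in control libraries at day 7, with both testable genes lower (Cd14 at -1.07, edgeR adjusted p = 0.00139, and Csf1r at -2.27, edgeR adjusted p = 0.026) and Adgre1 at 0 counts in all 12 libraries. The 4 endothelial markers summed to 0.725 to 1.21 CPM in labelled and 0.416 to 0.602 CPM in control libraries, with 1 of 3 testable genes higher (Pecam1 at 1.56, edgeR adjusted p = 0.0357). The 4 muscle markers summed to 31.4 to 42.7 CPM in labelled and 12.3 to 14.9 CPM in control libraries, with the 1 testable gene higher (Des at 1.47, edgeR adjusted p = 0.000973) and Myod1 and Myog at 0 counts in all 12. The 4 hepatic stellate cell markers summed to at most 0.0552 CPM in labelled and 0.185 CPM in control libraries, with Lrat and Hand2 at 0 counts in all 12.

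Bco1, which encodes the carotene-cleaving oxygenase, was close to silent in 3 groups and abundant in 1. At day 7 it had 105, 96.0 and 91.3 CPM in the LSD1-labelled libraries, against 0.178, 0.510 and 0.666 CPM in control. At day 0 it had 0.614, 0.394 and 0.402 CPM in the LSD1-labelled libraries, against 0.510, 0.564 and 0.238 CPM in control. The 3 labelled day 7 libraries stood far above the other 9, which overlapped each other whatever their day or label. The fitted difference under the label at day 7 was 212-fold (log2 fold change 7.73 ± 0.305 SE) and that of day 7 over day 0 in labelled cells was 207-fold (7.69 ± 0.300). In control cells the same 7 days gave 0.06 ± 0.412, which is within its error. The control values rest on 31 and 33 counts summed over 3 libraries at day 7 and day 0, so differences among the low groups were not detectable at this depth.

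Bco1 (transcript at chr8:117095865-117133720 on the plus strand of GRCm38.p6) is shown with the 250 bases before its transcription start site, because, of the 7 members with a window in the promoter table (all but Crabp2 and Rdh10), it was the only one with a direct repeat of the nuclear receptor hexamer AGGTCA with 1 base between the copies, the kind of element that PPARG with RXR is known to bind. The letters AGGTCANAGGTCA, searched on both strands, occurred in 13 of 32851 RefSeq promoter windows (0.0396%) that run from 250 bases before to 50 after a start site. The match, in capitals on the complementary strand, lies at -56 to -44 (start site at 0), and the 2 hexamer matches in this window are the 2 arms of the repeat.
Bco1 promoter, chr8:117095615-117095864: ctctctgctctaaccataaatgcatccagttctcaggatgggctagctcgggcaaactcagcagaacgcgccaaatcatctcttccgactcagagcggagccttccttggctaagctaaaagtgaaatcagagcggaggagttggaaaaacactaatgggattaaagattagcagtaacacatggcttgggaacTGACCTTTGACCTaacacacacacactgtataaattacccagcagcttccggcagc

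Stra6, the cell surface receptor that takes up retinol from its plasma carrier, was at the edge of detection in all groups. It had 0, 6 and 0 counts in LSD1-labelled and 3, 3 and 5 counts in control libraries at day 7, and 10, 0 and 0 counts in LSD1-labelled and 4, 4 and 3 counts in control libraries at day 0. All 10 counts of the labelled day 0 group came from replicate 1, the library that stood apart. The groups overlapped, and no difference was detectable at this depth.

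Rdh10, which makes retinal from retinol, was high in 1 group only, the control cells before induction. At day 7 it had 10.4, 10.8 and 8.33 CPM in LSD1-labelled libraries, against 10.0, 8.29 and 10.7 CPM in control. At day 0 it had 15.02, 9.41 and 8.69 CPM in LSD1-labelled libraries, against 38.1, 40.8 and 44.0 CPM in control. The undifferentiated labelled cells were thus already at the level that both kinds of cells had at day 7, with replicate 1 the highest of the 9 low libraries. The label went with 3.71-fold lower Rdh10 at day 0 (log2 fold change -1.89 ± 0.201 SE, and -2.18 ± 0.15 without replicate 1), while at day 7 the difference was 0.02 ± 0.203. Day 7 over day 0 gave -0.17 ± 0.202 in labelled cells, and 0.12 ± 0.15 without replicate 1, against -2.08 ± 0.204 in control cells.

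Dhrs3, which returns retinal to retinol and is known as a retinoic acid-inducible gene, was expressed in all groups and highest in labelled cells at day 7. It had 121, 108 and 127 CPM in LSD1-labelled libraries at day 7, against 23.4, 27.0 and 17.4 CPM in control. At day 0 it had 12.9, 9.95 and 9.75 CPM in LSD1-labelled libraries, against 10.9, 15.3 and 13.3 CPM in control. At day 7 no labelled library overlapped a control library, whereas at day 0 the groups overlapped. The label went with a 5.26-fold higher level at day 7 (2.40 ± 0.182), and day 7 exceeded day 0 by 10.9-fold in labelled cells (3.45 ± 0.191) and by 1.71-fold in control cells (0.78 ± 0.179). At day 0 the difference under the label was -0.28 ± 0.180, and -0.42 ± 0.16 without replicate 1 of the labelled group.

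Aldh1a1, which encodes the retinal dehydrogenase that is typical of white fat cells, was nearly absent before induction and present at similar levels under both labels after it. At day 7 it had 20.5, 17.4 and 15.7 CPM in LSD1-labelled libraries, against 19.9, 20.9 and 24.6 CPM in control. Before induction it had 0.532, 0.286 and 0.767 CPM in LSD1-labelled libraries, against 1.45, 0.967 and 1.07 CPM in control. The day 7 groups overlapped and the day 0 groups did not. Day 7 exceeded day 0 by 33.5-fold in labelled cells (5.07 ± 0.280) and 18.6-fold in control cells (4.22 ± 0.256). Under the label the fold changes were -0.29 ± 0.211 at day 7 and -1.13 ± 0.309 at day 0, the second from 42 counts in labelled and 88 in control libraries.

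Aldh1a7, the neighbouring rodent paralog whose product is known to oxidise retinal poorly, had the highest level per transcript length of the members at day 7. It had 341, 310.4 and 323 CPM in LSD1-labelled libraries at day 7, against 96.7, 90.02 and 109 CPM in control. Before induction it had 1.68, 0.394 and 0.438 CPM in LSD1-labelled libraries, against 1.14, 1.33 and 1.59 CPM in control. The labelled day 0 libraries disagree among themselves, with replicate 1 above all others. Day 7 exceeded day 0 by 397-fold in labelled cells (8.63 ± 0.366), or 771-fold (9.59 ± 0.19) without that replicate, and by 72.8-fold in control cells (6.19 ± 0.331). The label went with a 3.29-fold higher level at day 7 (1.72 ± 0.250) and with -0.73 ± 0.402 at day 0, which was -1.69 ± 0.28 without replicate 1. In the same libraries at day 7 the ratio of labelled to control was thus above 1 for Aldh1a7, while the groups overlapped for Aldh1a1 (-0.29 ± 0.211).

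The loci lie side by side and point towards each other, Aldh1a1 at chr19:20601968-20643463 on the plus strand and Aldh1a7 at chr19:20692953-20727556 on the minus strand. Their 250 bases before the start site were 73.6% identical over 235 aligned bases and are shown because both genes were low at day 0 and high at day 7. The capitals mark the longest identical run, 65 bases at -94 to -30 in both, which holds the octamer ATGCAAAT at -56 to -49, a match found in 1.74% of all promoter windows on either strand.
Aldh1a1 promoter, chr19:20601718-20601967: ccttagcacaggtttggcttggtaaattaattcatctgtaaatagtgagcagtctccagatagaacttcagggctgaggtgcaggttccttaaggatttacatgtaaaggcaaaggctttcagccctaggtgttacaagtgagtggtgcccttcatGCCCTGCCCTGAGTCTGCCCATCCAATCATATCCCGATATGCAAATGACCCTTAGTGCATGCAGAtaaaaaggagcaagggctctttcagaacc
Aldh1a7 promoter, chr19:20727557-20727806: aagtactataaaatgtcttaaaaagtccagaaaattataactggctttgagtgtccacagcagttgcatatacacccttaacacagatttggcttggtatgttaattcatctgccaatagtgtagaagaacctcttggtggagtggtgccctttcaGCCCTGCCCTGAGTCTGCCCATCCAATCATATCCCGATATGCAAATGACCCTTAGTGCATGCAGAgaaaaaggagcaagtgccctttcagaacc
The transcripts were 89.5% identical over 2045 aligned bases, and 151 of 2011 windows of 50 bases in Aldh1a7 (7.51%) occur unchanged in Aldh1a1. How the authors treated reads that fit both is not given in the sources used here, so each value of the pair is uncertain by the reads that could be split, and the low Aldh1a1 level beside the high Aldh1a7 level most of all.

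The carriers of retinoic acid were scarce. Crabp1 had 0 counts in all 6 day 7 libraries, which allows up to 0.0528 CPM in the labelled and 0.0441 CPM in the control group (3 counts over a group), and at day 0 it had 1, 0 and 0 counts in LSD1-labelled and 3, 0 and 2 counts in control libraries. Crabp2, known to hand retinoic acid to its receptors, had 0.166, 0.310 and 0.207 CPM in LSD1-labelled and 0.446, 0.324 and 0.333 CPM in control libraries at day 7. At day 0 Crabp2 had 0.696, 0.859 and 1.24 CPM in LSD1-labelled and 1.06, 1.05 and 0.913 CPM in control libraries. All 6 day 7 libraries were below all 6 day 0 libraries, with fold changes of -2.01 ± 0.411 in labelled and -1.44 ± 0.372 in control cells. The label went with -0.67 ± 0.454 at day 7 and -0.11 ± 0.334 at day 0, and the day 7 values rest on 13 counts in labelled and 25 in control libraries.

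Rarb, the retinoic acid receptor gene that retinoic acid itself is known to induce, was also near the limit of detection. It had 0, 4 and 2 counts in LSD1-labelled and 6, 16 and 3 counts in control libraries at day 7, and 18, 4 and 8 counts in LSD1-labelled and 7, 9 and 9 counts in control libraries at day 0. The groups overlapped at each day. Its promoter holds the sequence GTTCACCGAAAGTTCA at -52 to -37, a direct repeat of the kind known as the retinoic acid response element of this gene, and the letters GTTCANNNNNNGTTCA occurred in 0.0761% of all promoter windows on either strand. The repeats AGGTCANNAGGTCA and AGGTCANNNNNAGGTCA were found in 0.00913% of windows each and in no member promoter searched, and those of Crabp2 and Rdh10 were not searched.

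**Figure D1:**
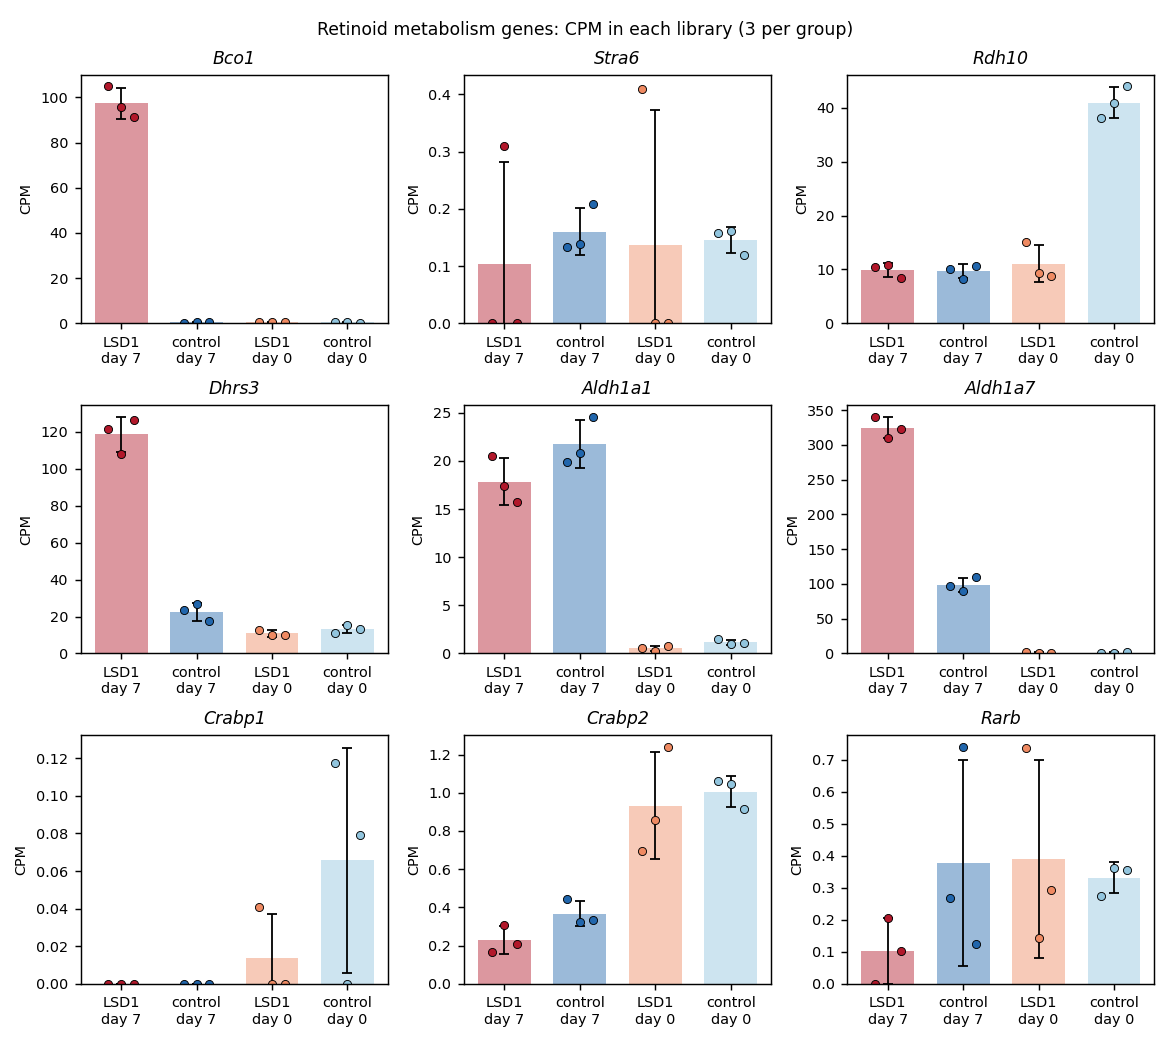
CPM of the 9 genes in every library, with points for the 3 libraries of a group, bars for the mean and error bars for the SD (drawn down to 0), on an axis of its own per gene. Bco1, Dhrs3 and Aldh1a7 were highest in the LSD1-labelled day 7 group, Rdh10 in control at day 0, and Stra6, Crabp1 and Rarb stayed below 1 CPM throughout.

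Per length of transcript the order of the members turned over with differentiation. In CPM per kb, the 3 highest members at day 7 were Aldh1a7 (158), Dhrs3 (50.8) and Bco1 (38.5) in LSD1-labelled cells, and Aldh1a7 (47.9), Aldh1a1 (10.6) and Dhrs3 (9.66) in control cells. At day 0 they were Rdh10 (4.81), Dhrs3 (4.64) and Crabp2 (1.04) in labelled cells, and Rdh10 (17.9), Dhrs3 (5.64) and Crabp2 (1.12) in control cells. Among group means of a gene, the neighbours whose libraries overlapped were both day 7 groups for Aldh1a1, both day 0 groups for Aldh1a7, Dhrs3 and Crabp2, the 3 lower groups for Bco1, the 3 lower groups for Rdh10, all 4 groups for Stra6 and Crabp1, and the 3 higher groups for Rarb.

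**Figure D2:**
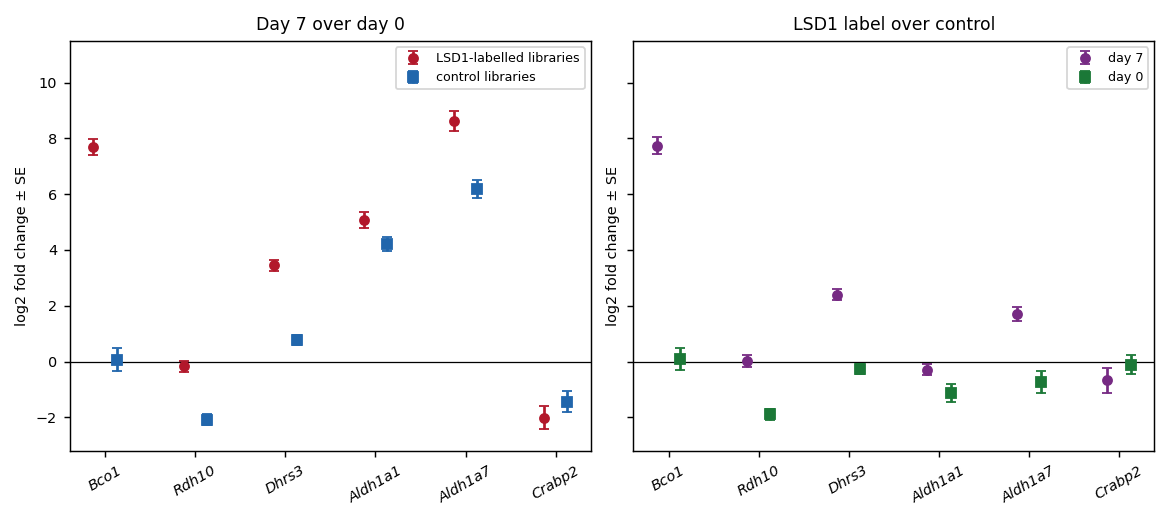
Log2 fold change with its SE for the 6 members past the filter on low counts, day 7 over day 0 on the left and LSD1 label over control on the right. Bco1 is at 7.69 in labelled cells and 0.06 in control cells on the left, and Rdh10 is at 0.02 at day 7 and -1.89 at day 0 on the right.

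The members past the edgeR adjusted p threshold of 0.05 were counted beside the share of all genes past it. For day 7 over day 0, 5 of 6 members past the filter passed in labelled cells (4 higher, 1 lower), where 69.8% of all genes did, and 5 of 6 in control cells (3 higher, 2 lower), where 48.3% did (23.7% higher). For the label, 3 of 6 passed at day 7, all higher (30.2% of all genes were higher, 63.6% passed either way), and 2 of 6 at day 0, both lower (13% lower, 25.8% either way). For the difference between these differences, the interaction of label and day, 4 of 6 passed, all positive (23.9% positive, 28.1% negative, 51.9% either way): Bco1 at 7.64 ± 0.552, Dhrs3 at 2.68 ± 0.254, Aldh1a7 at 2.45 ± 0.471 and Rdh10 at 1.92 ± 0.284. The interaction was 0.85 ± 0.374 for Aldh1a1 and -0.57 ± 0.561 for Crabp2. Nothing is read from these counts, since the members were chosen on the same libraries. Without replicate 1 of the labelled day 0 group 4 of the 6 passed for the label at day 0, Aldh1a7 and Dhrs3 being added, and the count was 1 without control day 0 replicate 1 or labelled day 0 replicate 2, where Aldh1a1 no longer passed.

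The genes whose profile over the 12 libraries was most like that of a member were sought among 9384 genes with a mean of at least 10 CPM, by the root-mean-square difference of centred log2 CPM. Of the members past the filter Dhrs3 had the closest partners, Crat (carnitine acetyltransferase, difference 0.182) and Decr1 (a reductase of fatty acid oxidation, 0.208). Crat had 1254 CPM in labelled and 220.3 CPM in control libraries at day 7. Bco1 was most like Chchd10 (0.73), a mitochondrial protein gene with 105 CPM in labelled and 0.931 CPM in control libraries at day 7, and Depp1 (0.769), with 161 and 1.94 CPM. Aldh1a1 was most like Glul (0.532) and Prlr (0.556), and Aldh1a7 had Fam83a (0.595) among its closest. Rdh10 was most like Prelp (0.355) and Rgmb (0.377), and the sparsely counted Crabp2 like Tcof1 (0.209) and Pprc1 (0.211).

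A list of 62 other genes of retinoid handling placed the members in their pathway. 37 of the 62 passed the filter and were fitted with all 13347 genes. The list was drawn up with earlier results of these data known, which the p-values do not allow for. Rdh16, Rxrg and Rdh9 had enough counts for the filter only in labelled cells at day 7, and Rdh12 only in control cells at day 7. Cdx1 had them mainly in labelled cells at day 0, and Rbp7 only in libraries of day 7, under both labels. The direction of these genes in comparisons with that group or day was part of their entry and is no separate result. These genes are included in the counts that follow. With the label at day 7, 19 of the 37 were higher and 10 lower, beside 30.2% and 33.4% of all genes. Their median log2 fold change was 0.71, beside -0.05 over all genes. For day 7 over day 0, 26 rose and 6 fell in labelled cells (median 1.01 beside -0.07), where 32.6% of all genes rose and 37.2% fell. In control cells 22 rose and 3 fell (median 1.25 beside -0.01), where 23.7% of all genes rose and 24.5% fell. At day 0 the label went with 6 higher and 9 lower (median -0.02 beside 0.00), where 12.8% of all genes were higher and 13% lower. Replicates of the day 0 groups decided this comparison in part: the total of 15 was 9 without control replicate 1, 8 without control replicate 2, control replicate 3 or labelled replicate 3, and 19 without labelled replicate 1.

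Genes of retinoid entry and storage include the lipases that free retinol from its esters. Of the 12 listed genes of this group 6 passed the filter: Scarb1, Dgat1, Lpl, Lipe, Pnpla2 and Ces1d. Bco2, Rbp4, Ttr, Stra6l, Lrat and Rpe65 had too few counts, so the group is measured only in part. All 6 measured genes rose by day 7 under both labels, beside 32.6% of all genes in labelled and 23.7% in control cells. At day 7 the label went with 5 higher and 1 lower, beside 30.2% and 33.4% of all genes. The rise of Ces1d in labelled cells (0.90 ± 0.330, edgeR adjusted p = 0.0264) did not pass without labelled replicate 2 or 3 of day 0 or replicate 1 or 3 of day 7. Lipe, the hormone-sensitive lipase that also hydrolyses retinyl esters, averaged 2154 ± 218 CPM in LSD1-labelled and 322 ± 24.5 CPM in control libraries at day 7 (log2 fold change 2.74 ± 0.209 SE, edgeR adjusted p = 1.86e-07). Pnpla2, the lipase that opens triglyceride breakdown, averaged 3356 ± 344 CPM and 648 ± 63.5 CPM (2.37 ± 0.142, edgeR adjusted p = 2.19e-08). Ces1d, a carboxylesterase, was lower, at 28.5 CPM in labelled and 84.5 CPM in control libraries (-1.57 ± 0.329, edgeR adjusted p = 0.00106). The genes of the plasma carrier Rbp4 and of the retinol-esterifying enzyme Lrat had 0 counts in all 12 libraries, and Bco2, which encodes the second carotene oxygenase, had 4 counts in labelled and 11 in control libraries at day 7.

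Among the genes of cellular retinol binding, Rbp7, a carrier typical of fat tissue, had 38 counts in labelled and 22 in control libraries at day 7, against 0 in labelled and 3 in control libraries at day 0. In labelled cells Rbp7 was thus at least 17.8-fold higher at day 7 than a floor of 3 counts over the day 0 group. In control cells the ratio of day 7 to day 0 was 8.14 (exact 95% counting interval 2.44 to 42.5). Rbp7 passed the filter only through libraries of day 7, so its rise by day 7 is no separate result.

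Of the 14 measured oxidoreductases of retinol and retinal beside Rdh10 and Dhrs3, the label at day 7 went with 9 higher and 4 lower, beside the same 30.2% and 33.4% of all genes. Rdh16 and Rdh9 among the higher and Rdh12 among the lower passed the filter only through the group in which they were high. Retsat, which saturates retinol and is known as a PPARG target, averaged 532 ± 51.5 CPM in labelled and 106 ± 4.22 CPM in control libraries (2.33 ± 0.120, edgeR adjusted p = 6.57e-09). Rdh16 had 80, 93 and 80 counts in labelled and 0, 0 and 2 counts in control libraries at day 7, a ratio of 152 (exact 95% counting interval 41.5 to 1260), and 0 counts at day 0. Adh7, an alcohol dehydrogenase with high affinity for retinol, averaged 11.47 ± 2.89 CPM in labelled and 94.6 ± 7.59 CPM in control libraries at day 7 (-3.04 ± 0.276, edgeR adjusted p = 8.64e-07), and it fell by day 7 in labelled cells (-2.09 ± 0.269) while it rose in control cells (1.34 ± 0.255). Adh5 was higher (0.94 ± 0.109, edgeR adjusted p = 7.51e-06) and Rdh11 lower (-0.93 ± 0.149, edgeR adjusted p = 0.000129) under the label at day 7.

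Beside Aldh1a1 and Aldh1a7, the retinal dehydrogenase genes Aldh1a2 and Aldh1a3 gave almost no reads, 0 for Aldh1a2 in all 12 libraries and at most 17 per group for Aldh1a3. Of the genes that clear or deliver retinoic acid, Fabp5, whose product carries it towards the receptor PPARD, averaged 658 ± 33.0 CPM in labelled and 175 ± 36.9 CPM in control libraries at day 7 (1.91 ± 0.283, edgeR adjusted p = 6.79e-05). Cyp26b1, which degrades retinoic acid, averaged 9.08 CPM in labelled and 16.4 CPM in control libraries at day 7 (-0.85 ± 0.149, edgeR adjusted p = 0.000267). Cyp26a1, a sensitive retinoic acid target, had 2 counts in labelled and 3 in control libraries at day 7 and 47 and 6 at day 0, of which 34 lay in the labelled replicate that stood apart.

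The receptors moved in different directions. At day 7 Rara averaged 63.1 CPM in labelled and 106 CPM in control libraries (-0.75 ± 0.113, edgeR adjusted p = 7.38e-05), Rarg 74.4 and 121 CPM (-0.71 ± 0.117, edgeR adjusted p = 0.000167), and Rxra 337 and 535 CPM (-0.67 ± 0.105, edgeR adjusted p = 0.00011). Rxrb was higher, at 116 CPM in labelled and 50.3 CPM in control libraries (1.20 ± 0.111, edgeR adjusted p = 9.32e-07), as was the sparsely counted Rxrg, with 58 and 3 counts, a ratio of 23.2 (exact 95% counting interval 7.54 to 116). Ppard did not pass at day 7 (0.07 ± 0.137, edgeR adjusted p = 0.672) and rose by day 7 under both labels. Of the 8 listed retinoic acid target genes 4 could be tested, and Tgm2 (8.34 CPM in labelled and 0.9502 CPM in control libraries, 3.12 ± 0.339, edgeR adjusted p = 4.18e-06) and Rarres2 (285 and 127 CPM, 1.17 ± 0.122, edgeR adjusted p = 2.96e-06) were higher under the label at day 7, while Cdx1 (0.47 ± 0.456) did not pass.

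**Figure D3:**
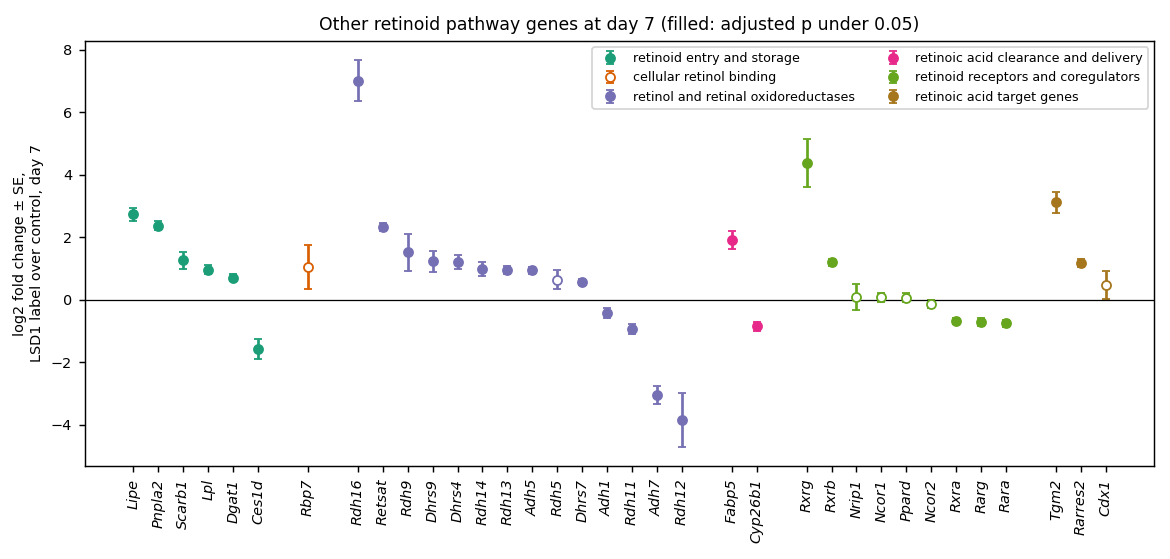
Log2 fold change with its SE, LSD1 label over control at day 7, for 35 of the 37 pathway genes outside the members that passed the filter, coloured by their part in the pathway and filled where the edgeR adjusted p was under 0.05. Of the 35 drawn, 19 are filled above 0 and 9 are filled below 0; Rdh16 and Rxrg rest on 2 and 3 control counts.

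The ChIP-seq lists gave a readout that had not served to choose the members. A peak within 1 kb of a start site was listed for 2 of 9 members in LSD1-labelled cells at day 7 (Rdh10 and Dhrs3), where 47.6% of 23000 genes had one, and for 1 of 9 in control cells at day 7 (Rdh10), where 34.6% did. At day 0 it was 2 of 9 in LSD1-labelled cells (Crabp2 and Rdh10) beside 42% of genes, and 1 of 9 in control cells (Rdh10) beside 13.3%. Nrf1 had no such peak at a member at either day (7.52% of genes at day 7, 6.96% at day 0). Nothing is read from these counts over 9 genes. The lists differ in length, with 27221 peaks in labelled and 8303 in control cells at day 7 and 13997 and 3024 at day 0. Without replicates and read depths, the lists allow no test between conditions.

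At Rdh10 (chr1:16105882-16132550, plus strand) an LSD1 peak lay within 1 kb of the start site in all 4 lists, covering it in 3 and ending 35 bp short of it in control cells at day 0. It spanned chr1:16103924-16106213 in labelled cells and chr1:16103739-16106356 in control cells at day 7, and chr1:16103641-16106082 and chr1:16103898-16105847 at day 0. The authors' scores were 1774 in labelled and 556 in control cells at day 7 and 852 and 153 at day 0, values that belong to each list and were not compared. The start site of the divergent neighbour Rpl7, a ribosomal protein gene on the minus strand, lies 1449 bp away at position 16104433 and was covered in all 4 lists, so the peak cannot be assigned to either gene. Rpl7 did not pass under the label at day 0 (-0.16 ± 0.17, edgeR adjusted p = 0.527), the comparison in which Rdh10 was 3.71-fold lower, or at day 7 (-0.37 ± 0.17, edgeR adjusted p = 0.0774). The middle 300 bases of the 1924 bp shared by the 4 peaks are printed because this was the only LSD1 peak within 1 kb of a member's start site in all 4 lists. They lie between the start sites, hold 26 CG dinucleotides (capitals) and are 64% G or C, beside medians of 7 and 52.7% over the RefSeq promoter windows of the same length.
Rdh10 upstream stretch, chr1:16104736-16105035, plus strand: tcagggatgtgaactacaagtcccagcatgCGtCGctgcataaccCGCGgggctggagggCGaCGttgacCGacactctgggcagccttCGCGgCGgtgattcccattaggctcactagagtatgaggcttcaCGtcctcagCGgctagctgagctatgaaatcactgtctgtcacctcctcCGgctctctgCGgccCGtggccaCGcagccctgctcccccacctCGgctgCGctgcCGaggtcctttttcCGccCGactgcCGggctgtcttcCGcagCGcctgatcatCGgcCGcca

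Dhrs3 (chr4:144892827-144928209, plus strand) had 8 LSD1 peaks within the gene and 20 kb on either side in labelled cells at day 7, against 0 in control cells at day 7, and 1 in labelled and 0 in control cells at day 0. The share of all genes with a peak in such a window was not computed. Over the gene and 1 kb upstream it was 51.8% in labelled and 36% in control cells at day 7, and 45.1% and 14% at day 0. By annotation 2 of the 8 lay upstream, 1 over a coding exon at chr4:144893431-144894764 (score 421), 4 in introns, and 1 downstream at chr4:144929002-144930635 (score 442), 793 bp past the gene's end. The only other peak, in labelled cells at day 0, overlapped that downstream place (chr4:144929510-144930966, score 50.9). Peaks of this list had a median width of 707 bp, so several listed peaks can stand for what is 1 broad region in another list.

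Bco1 had 3 LSD1 peaks in the same window, all in labelled cells at day 7, and 0 in the other LSD1 lists. Over a narrower window, the gene and 1 kb upstream, 51.8% of all genes had a peak in labelled cells at day 7, and 36% in control cells at day 7. The Bco1 peaks were chr8:117085609-117086026 (score 58.1), chr8:117093899-117094633 (score 58.6), both upstream, and chr8:117097351-117098437 (score 299), which overlaps a coding exon. None covered the promoter printed above, the nearest ending 1232 bp before the start site. With a distance of 5 kb in place of 1 kb, 4 of 9 members had a peak in this list (Bco1, Crabp2, Rdh10 and Dhrs3), beside 51.3% of genes.

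Crabp2 (chr3:87948693-87953372, plus strand) had a peak at chr3:87945941-87947868 (score 124), 825 bp before its start site, in labelled cells at day 0, where its RNA did not differ from control beyond the error. A peak about 18 kb upstream was listed in all 4 LSD1 lists and in the day 7 Nrf1 list and lies at the start sites of Isg20l2 and Rrnad1. Aldh1a1, Aldh1a7, Crabp1, Stra6 and Rarb had no peak of either factor within the gene or 20 kb of it in any of the 6 lists. For Nrf1 at day 7 the sample's title and its genotype disagree (LSD1 cells against control), and no genotype is given to that list.

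**Figure D4:**
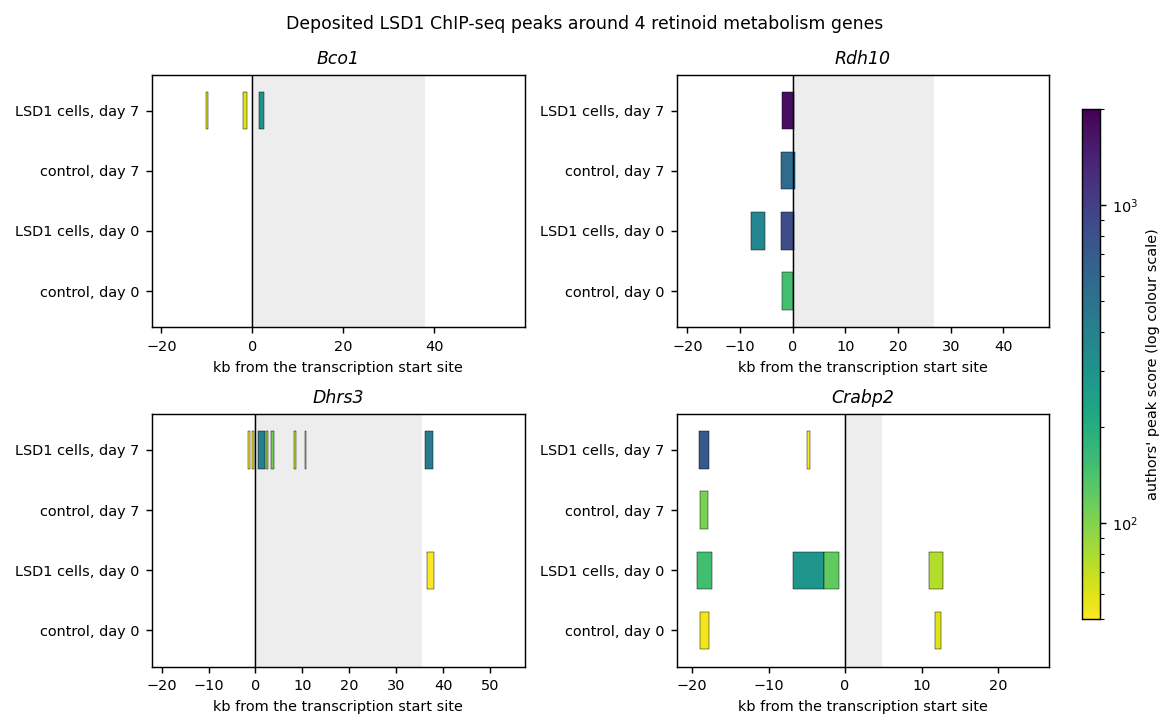
Deposited LSD1 peaks as boxes at their true width along the distance from the transcription start site (line at 0, gene body in grey), 1 row per list, coloured by the authors' peak score on a log scale. Rdh10 has a peak within 1 kb of the start site in all 4 rows, and Bco1 has its 3 peaks and Dhrs3 8 of its 9 in the top row, LSD1-labelled cells at day 7.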

How the data were processed

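The authors deposited RNA-seq counts, whole numbers per RefSeq transcript, in 1 table per library; how reads were counted and whether strand was used is not given in the sources used here. The submitters' processing notes name Bowtie2, TopHat2, DESeq 1.8.3, edgeR, HOMER, MACS 1.41 and mm10, with no role or order. Peaks were deposited by the authors with a score per peak, 1 list per ChIP sample, and the score is the authors' own value; whether inputs served as background is not given in the sources used here.

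Of 30521 transcript rows, 29908 were named from the RefSeq table and 182 from GENCODE, and the 431 rows without a symbol (0.893% of counts) were kept in the fit under their transcript accession. For each gene the transcript with the highest mean count was used. Library totals were 27512273 to 37565527 over all transcripts and 19952894 to 26266417 after this step; intervals and floors cover counting error only. edgeR 4.0.16 (R 4.3.3) filtered genes with filterByExpr, scaled with TMM and fitted 1 quasi-likelihood model over the 12 libraries, with Benjamini-Hochberg adjustment over 13347 genes for each of 5 comparisons; the steps were tested on simulated data. Alternatives were DESeq2 1.42.0, its size factors, no filter, summed transcripts, a replicate block, fits of only 2 groups and leaving out each library. Peaks were placed by distance to RefSeq starts (GRCm38.p6, the mm10 assembly) with pandas 2.3.3, and transcripts aligned with Biopython 1.88. The members and gene lists were chosen with earlier results of these data known. Named from the pathway list were 15 genes chosen for their role and, per group of genes and comparison, up to 2 in each direction with the smallest adjusted p, of which those that bear on the members are printed. Values of some genes are not reported here.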

Additional observations from a re-analysis of the deposited data

Results flagged for a closer look

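For Kdm1a and 18 named pathway genes outside the members, the effect of the label at day 7 differed from that at day 0 by the interaction of edgeR's quasi-likelihood fit over all genes (adjusted p under 0.05), given here as log2 differences, day 7 effect minus day 0 effect. Those that were positive were Tgm2 at 2.87, Lipe at 2.81, Fabp5 at 2.80, Retsat at 2.76, Rdh5 at 2.08, Rarres2 at 2.04 and Pnpla2 at 1.97. Smaller positive differences were found for Rdh14 at 1.67, Lpl at 1.38, Rxrb at 1.11, Adh5 at 0.67 and Dgat1 at 0.55. The negative ones were Rdh12 at -3.95, Adh7 at -3.43, Ces1d at -2.21, Rarg at -1.25, Cyp26b1 at -0.75, Rara at -0.73 and Kdm1a at -0.57. Rdh12 passed the filter only through control cells at day 7, so its negative difference is no separate result. Of the 37 pathway genes past the filter 21 passed this threshold (56.8%), beside 51.9% of all genes. Some of the named genes were named for their small adjusted p in this same interaction. The number of named genes listed here is thus no separate result.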

How the results depend on the processing

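Among the members, Kdm1a and the named pathway genes, no fold change past the threshold changed sign in any alternative. Other genes were not checked for this. Differences within their error did change sign without labelled day 0 replicate 1, such as Rdh10 for day 7 in labelled cells and Bco1 and Crabp2 for the label at day 0. The comparison that depended on the processing was the label at day 0. There, a fit of only its 2 groups called 1856 genes in place of 3444, 6 other pathway genes in place of 15 and 1 member in place of 2, with fewer samples to estimate the spread. Leaving out 1 library gave 2165 genes (without control day 0 replicate 3) to 6560 (without LSD1-labelled day 0 replicate 1), 8 to 19 pathway genes and 1 to 4 members. In the other comparisons leaving out 1 library moved no count past 1.5 times: 8786 to 10293 genes for day 7 in labelled cells, 5250 to 8536 in control cells, 7656 to 9957 for the label at day 7 and 6304 to 8748 for the interaction. DESeq2 called 8713 genes for the label at day 7 and 3989 at day 0. Peak counts rested on the cutoffs, for the pathway genes as for all genes. In control cells at day 0, 8 of 62 pathway genes had an LSD1 peak at the start site (13.3% of all genes). With scores of at least 100 it was 2 (3.65% of all genes). For Nrf1 the same minimum left 0 of 2 pathway genes at day 7 (4.17% of all genes in place of 7.52%). At day 0 it left 1 of 3 (2.82% of all genes in place of 6.96%). Within 5 kb 5 pathway genes had an Nrf1 peak at day 0 (7.95% of all genes), and over the whole gene 6 did (8.28%). Within 5 kb 4 members had an LSD1 peak in labelled cells at day 7, beside 51.3% of all genes. Same-numbered replicates did not deviate together (correlations -0.251 to 0.114), so they share only a number. A replicate block called 9049 and 6029 genes for day 7 in labelled and control cells, 8157 and 2962 for the label at day 7 and day 0, and 6538 for the interaction, with 32, 24, 27, 11 and 21 pathway genes and 5, 5, 3, 2 and 4 members in the same order. Crabp2, Crabp1, Stra6 and Rarb were limited by depth.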
